A study of Bos taurus with 13 samples.

Results

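The IFIT genes (interferon-induced proteins with tetratricopeptide repeats) and the IFITM genes (interferon-induced transmembrane proteins) were followed in whole blood of 13 dairy cows. The members were the rows of the count tables named *IFIT1*, *IFIT2*, *IFIT3*, *IFIT5*, *IFITM1*, *IFITM2* and *IFITM3*. Of these 7 names, 6 had a row among the 16095 named genes, 4 of the IFIT family and 2 of the IFITM family, and no row was named *IFITM2*. All 6 passed the filter on low counts, with between 917 and 47340 counts in a cow. Blood was drawn from the tail vein of lactating Italian Red Pied cows (the breed is called Italian Simmental in the study's methods) of a single commercial herd, and cows in the upper and lower tails of the distribution of milk cortisol, a marker of stress, were sequenced. The high group here had 7 cows (1 to 7) and the low group 6 cows (8 to 13). The cows received no treatment, so the groups differ by a measured trait and by whatever goes with it. Globin RNA was not depleted, and the RNA was that of all blood cells together.

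Type I interferons bind a receptor that activates JAK kinases, and STAT2 and IRF9 then help to switch on interferon-stimulated genes, of which both families are classical members. IFIT proteins act in the cytosol, where they bind viral RNA that differs from host RNA at its capped or phosphorylated end and keep it from being translated. IFITM proteins sit in the plasma and endosomal membranes and hinder the fusion of enveloped viruses with them, so that the IFITM family acts at entry and the IFIT family after it.

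The 4 IFIT rows lay side by side on the plus strand of chromosome 26 (UMD3.1 coordinates of the count tables), *IFIT2* at 11069934-11071316, *IFIT3* at 11083267-11090209, *IFIT1* at 11108663-11110084 and *IFIT5* at 11117506-11127464. The models of *IFIT1* and *IFIT2* held 1 exon interval each, and those of *IFIT3* and *IFIT5* held 2. The IFITM rows, with 2 exon intervals each, lay apart from each other, *IFITM1* on the minus strand of chromosome 11 at 107191850-107193047 and *IFITM3* on the plus strand of chromosome 29 at 51367009-51368065. The names of the IFITM rows are uncertain. The row *IFITM1* stood between *SIRT3* and *IFITM5*, whereas in the RefSeq gene table for ARS-UCD2.0 the coding gene beside *IFITM5* is named *IFITM2*, and *IFITM1* lies in another group of IFITM loci, next to *B4GALNT4*. RefSeq gave *IFITM3* as a synonym of 2 loci in that group, and it held no symbol *IFIT1*, with an unnamed locus between *IFIT3* and *IFIT5*. IFITM genes resemble each other closely and the headers of the tables name no option for strand or for reads with several places, so reads could be shared between copies. The rows are called here by the names in the tables.

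Counts on named genes were between 11045599 and 28124575 per cow, and the 6 members together took between 0.142% and 0.601% of them. Counting error of a member was between 0.46% and 3.30% of its count, far below the differences between cows. Markers of neutrophils, monocytes, T cells, B cells and cytotoxic cells were found in every cow, and the 4 haemoglobin genes with a row took between 0.0114% and 0.815% of named counts. The libraries all differed in their counts, and no date or batch was found in the labels.

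Per kilobase of gene model, the IFITM rows stood above the IFIT rows. Mean levels over the 13 cows were 691 ± 351 (SD) CPM (library-scaled counts) per kilobase for *IFITM3* and 592 ± 235 for *IFITM1*. They were 380 ± 167 for *IFIT3*, 396 ± 289 for *IFIT1* and 314 ± 281 for *IFIT2*, and *IFIT5*, whose product binds RNA with terminal phosphates as a single protein, was far lower at 40.0 ± 17.3. By geometric mean the order was *IFITM3*, *IFITM1*, *IFIT3*, *IFIT1*, *IFIT2* and *IFIT5*. *IFITM3* and *IFITM1*, neighbours in this order, did not differ beyond their spread (exact sign-flip permutation test over 13 cows, two-sided p = 0.0537, adjusted p = 0.0575 over 15 pairs), and neither did *IFIT3* and *IFIT1* (p = 0.618, adjusted p = 0.618). *IFITM1* was above *IFIT3* in 11 of 13 cows (exact p = 9.8e-04, adjusted p = 0.00146). *IFIT1* was above *IFIT2*, and *IFIT2* above *IFIT5*, in 13 of 13 cows (exact p = 2.4e-04 each, the smallest these tests can give, adjusted p = 5.2e-04). Levels per length rest on the gene models of the tables, which may lack transcript ends.

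Each member varied more between cows than most genes of its blood sample did. The SD of log2 CPM (TMM-normalized) was 0.76 for *IFIT1*, 0.92 for *IFIT2*, 0.56 for *IFIT3*, 0.52 for *IFIT5*, 0.56 for *IFITM1* and 0.74 for *IFITM3*, against a median of 0.31 over the 11033 genes tested. Ranked among these genes, the SD of *IFIT2* was at percentile 97.5, that of *IFIT1* at 94.3 and that of *IFITM3* at 93.7. *IFITM1*, *IFIT3* and *IFIT5* were at 84.5, 84.1 and 80.9. The plot of spread against level shows the 6 members at high mean levels, where most other genes varied little.

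**Figure D1:**
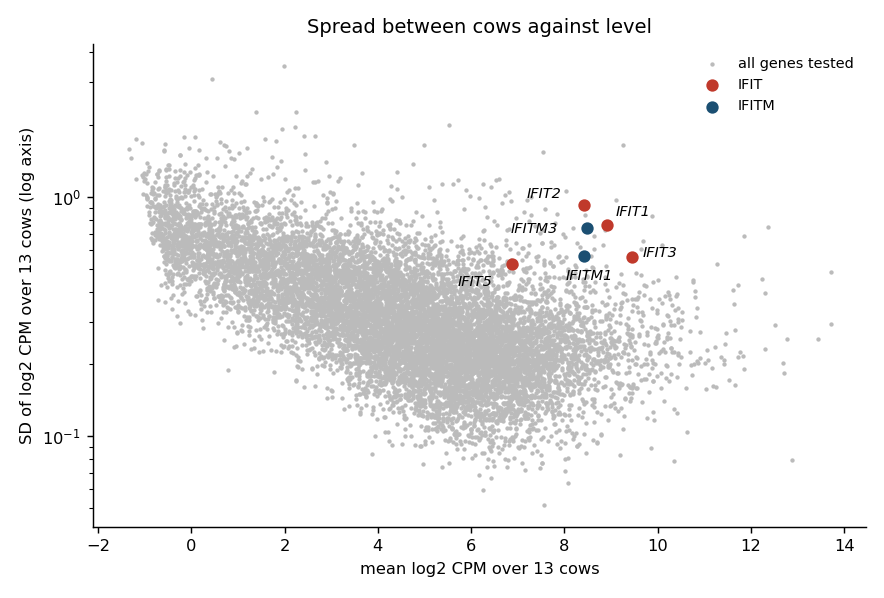
SD of log2 CPM over 13 cows (vertical, log axis) against mean log2 CPM (horizontal); each grey point is 1 of the 11033 genes tested, red points are IFIT and blue points IFITM members. All 6 members lie above the median SD of 0.31, with *IFIT2* highest at 0.92.

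*IFIT2*, which acts together with *IFIT1* and *IFIT3* in a complex, had the widest range. It was at 157, 259 and 708 CPM (lowest, median, highest) in the high group and at 209, 315 and 1603 CPM in the low group, 10.2-fold between the extreme cows. *IFIT1*, which binds caps without ribose methylation, was at 252, 405 and 780 CPM in the high group and at 349, 478 and 1812 CPM in the low group, 7.18-fold between extremes. For both genes cow 8 of the low group was above any other cow, cow 5 of the high group came next, and apart from cow 8 the low cows lay within the range of the high cows. *IFIT3*, which steadies *IFIT1* on its RNA, was at 366, 642 and 835 CPM in the high group and at 547, 692 and 1654 CPM in the low group, 4.52-fold between extremes. *IFIT5* was at 74.5, 102 and 172 CPM in the high group and at 91.2, 130 and 278 CPM in the low group, 3.73-fold between extremes. Cow 8 was the highest for these too, followed by cow 10 of the low group for *IFIT3* and by cow 5 for *IFIT5*, and the groups overlapped. Cow 7 of the high group was the lowest for *IFIT1*, *IFIT2* and *IFIT3*, and cow 3 of the high group for *IFIT5*.

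The IFITM rows had other cows at their ends. *IFITM1* was at 161, 298 and 626 CPM in the high group and at 285, 354 and 631 CPM in the low group, 3.93-fold between extremes. *IFITM3* was at 125, 254 and 823 CPM in the high group and at 303, 419 and 710 CPM in the low group, 6.56-fold between extremes. Cow 5 of the high group and cow 12 of the low group were the top cows for both, cow 4 of the high group was the lowest for both, and cow 8 ranked 3 of 13. The high cows enclosed the range of the low cows for *IFITM3*, and nearly so for *IFITM1*.

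**Figure D2:**
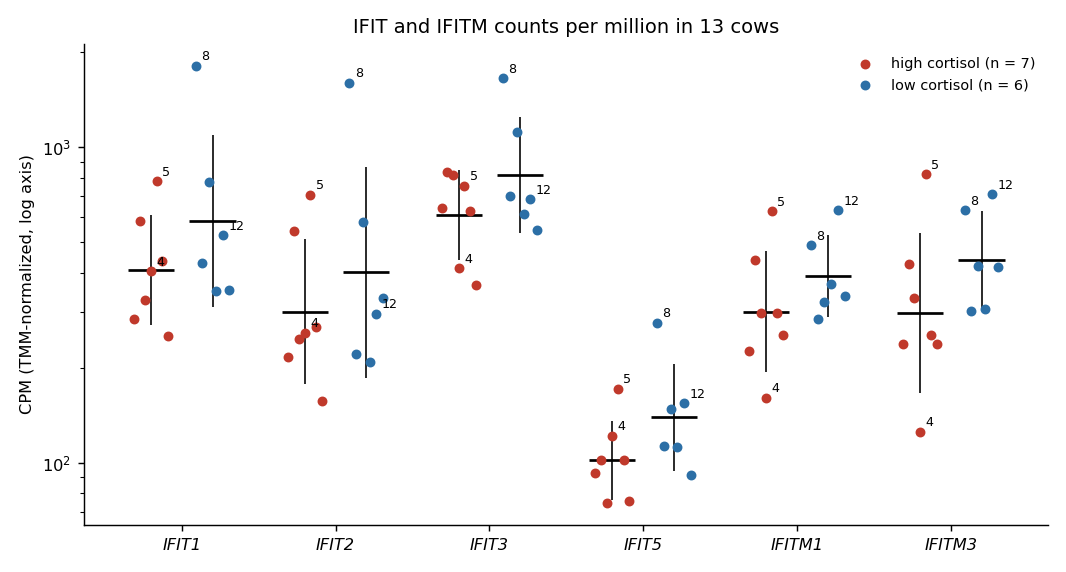
TMM-normalized CPM (log axis) of the 6 members in each cow, red for the 7 high and blue for the 6 low cortisol cows; horizontal bars are means and vertical bars 1 SD, both of log2 CPM, and cows 4, 5, 8 and 12 are numbered. Cow 8 tops the 4 IFIT genes, at 1812 CPM for *IFIT1*, while cows 5 and 12 top the IFITM rows and cow 4 is lowest there.

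The span between the highest and the lowest cow had a median of 2.51 on the log2 scale over the IFIT genes (jackknife SE 0.838 over cows) and of 2.34 over the IFITM rows (SE 0.666), against 1.07 over all genes tested. The families' medians differed by less than these errors, and each depended on a single cow. Without cow 8 the IFIT median was 1.603, and without cow 4 the IFITM median was 1.62. Within the groups, the IFIT spans were wider in the low group (1.595 to 2.94, against 1.19 to 2.17 in the high group), which holds cow 8. The IFITM spans were wider in the high group, which holds cows 4 and 5, at 1.96 and 2.71 against 1.15 and 1.23.

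Several cows set the families apart. The mean of the centred log2 CPM of the IFIT genes minus that of the IFITM rows was 0.98 in cow 8, 0.95 in cow 4 and 0.53 in cow 10, cows with more IFIT than IFITM transcript relative to the herd. It was -0.87 in cow 12, -0.44 in cow 5, -0.41 in cow 13 and -0.40 in cow 7. Cow 4 had IFITM rows far below their means (-1.29 on average) with IFIT genes only a little below theirs (-0.34). Cow 12 had IFITM rows well above their means (0.94) with IFIT genes close to theirs (0.07).

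**Figure D3:**
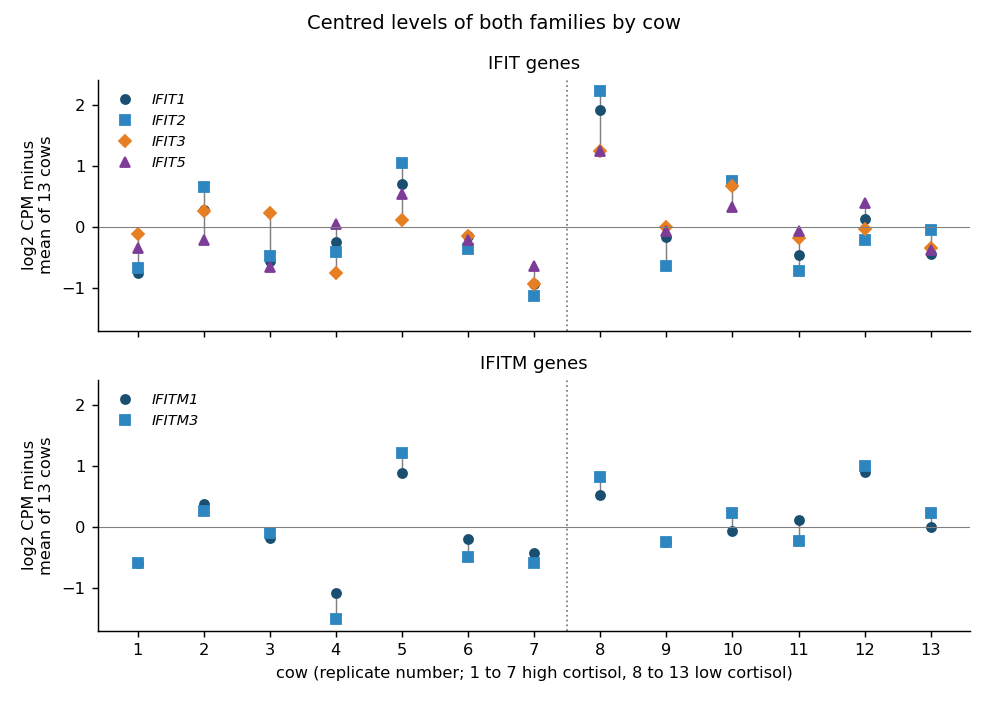
Log2 CPM of each member minus its mean over 13 cows, IFIT genes in the upper and IFITM rows in the lower panel; cows 1 to 7 are high and 8 to 13 low cortisol, and grey lines join the members in a cow. Cow 8 stands out in the IFIT panel (family mean 1.65), and cows 4, 5 and 12 in the IFITM panel (-1.29, 1.04 and 0.94).

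Members of a family went together across cows. *IFITM1* and *IFITM3*, although on different chromosomes in these tables, had a Pearson r of 0.958 (permutation test, 100000 resamples, adjusted p = 1.5e-04 over 15 pairs) and a Spearman rho of 0.945 (adjusted p = 1.5e-04). Their r was 0.980 in the high and 0.879 in the low group, and 0.923 without cows 4 and 12. The share of reads that could be placed on both rows was not tested. Within the IFIT family the 6 values of r ran from 0.68 to 0.96 with a median of 0.83 (jackknife SE 0.176), all 6 with an adjusted permutation p of at most 0.0276. Spearman's rho ran from 0.42 to 0.90, and 5 of 6 passed an adjusted p of 0.05. *IFIT1* and *IFIT2* were closest, with r 0.956 and rho 0.901 (adjusted p = 1.5e-04 and 0.00105), and r was 0.869 without cows 8 and 5. *IFIT1* and *IFIT5* came next, with r 0.921 and rho 0.819 (adjusted p = 3.5e-04 and 0.00595), and r was 0.770 without the same cows. *IFIT3* and *IFIT5*, the least alike, had r 0.68 but rho 0.42 (adjusted p = 0.0276 and 0.153), and r was 0.18 without cows 8 and 7, so their relation rested on those cows. Cow 3 ranked 4 of 13 for *IFIT3* and 13 for *IFIT5*, and cow 4 ranked 12 for *IFIT3* and 5 for *IFIT5*.

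Between the families the values of r were lower, but the gap was small by rank. The median rho was 0.648 between the families and 0.681 within the IFIT family. The 8 values of r ran from 0.53 to 0.66 with a median of 0.58 (jackknife SE 0.122), and 6 of 8 passed an adjusted permutation p of 0.05 by r and 5 of 8 by rho. *IFIT2* and *IFITM3* were closest, with r 0.659 and rho 0.775 (adjusted p = 0.0282 and 0.0100). Without the 2 cows farthest from the median of the IFIT gene (cow 8 with cow 5 or 7), r had a median of 0.449. It ran from 0.32 to 0.57, and 0 of 8 pairs had a permutation p below 0.05. Leaving out an extreme cow of the IFITM rows moved r the other way. The median between the families was 0.667 without cow 4 and 0.654 without cow 12, with TMM factors refitted. Without cow 8 alone, r between the families ran from 0.48 to 0.64 with a median of 0.573. The size of r between the families thus depended in part on the extreme cows. Over the IFIT pairs, r without cow 8 ran from 0.39 to 0.91 with a median of 0.669. By rank, rho without cow 8 ran from 0.27 to 0.87 within the IFIT family. Between the families it ran from 0.38 to 0.76, so the ranges overlapped widely. Without the 2 cows farthest from the median of the first gene, r had a median of 0.706 over the IFIT pairs. Within the groups, r between the families was 0.42 to 0.82 in the high group (median 0.686) and 0.22 to 0.68 in the low group (median 0.514). Within the IFIT family it was 0.17 to 0.97 (median 0.712) in the high group and 0.86 to 0.98 (median 0.939) in the low group. The difference between the medians was not tested. Removing the group means left the 3 medians at 0.82 (IFIT), 0.95 (IFITM) and 0.54 (between).

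The nearest genes of each member were listed by likeness across cows. Those most like *IFIT1* by r over the 13 cows were *DTX3L* (0.972), a ubiquitin ligase, *TDRD7* (0.967), *IFIT2* (0.956), *IFIH1* (0.944), a sensor of viral RNA, and *ZNFX1* (0.942). For *IFIT2* they were *IFIT1*, *ELMO2*, *ZNFX1*, *LYN* and *TRAFD1* (0.938 to 0.956), and for *IFIT5* they were *IFIH1*, *DRAM1*, *IFIT1*, *TRANK1* and *ADAR* (0.913 to 0.943). *IFIT3* had *HERC5* (0.912), *KHNYN*, *DCAF12*, *PTK2B* and *NAGK*, and no other IFIT gene among its 5 nearest. *IFITM3* was the gene most like *IFITM1*, followed by *BCAS3* (0.914), *ORAI2* (0.896), a calcium channel subunit, *ISG15* (0.873), a ubiquitin-like protein, and *EXOC2* (0.869). *IFITM3* had *ORAI2* (0.963), *IFITM1*, *XAF1* (0.931), *HSH2D* (0.929) and *ISG15* (0.929). Among the 11032 other genes, *IFIT1* ranked 3 in likeness to *IFIT5* and 72 to *IFIT3*, and *IFIT5* ranked 525 in likeness to *IFIT3*. The IFITM rows stood between ranks 233 and 1142 for the 4 IFIT genes. In the other direction, the IFIT genes stood between ranks 1072 and 1506 for *IFITM1* and between 1013 and 1660 for *IFITM3*. The points share the 13 libraries. Without cow 8, *DTX3L* stayed in position 1 for *IFIT1*, *IFIT1* for *IFIT2*, *IFIH1* for *IFIT5* and *IFITM3* for *IFITM1*, while for *IFIT3* *HERC5* went from position 1 to 27 and *NAGK* from 5 to 2.

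The factors that carry the interferon signal went with the members to different degrees (permutation p adjusted over 36 relations). *IRF1*, a factor induced by interferon, had r 0.75 with *IFIT3* and 0.60 with *IFIT2* (adjusted p = 0.00799 and 0.0476), with rho 0.72 and 0.44 (adjusted p = 0.0218 and 0.171). Its r was 0.54 with *IFIT1* and 0.40 with *IFIT5* (adjusted p = 0.0807 and 0.193), with rho 0.37 and 0.19 (adjusted p = 0.234 and 0.527). With *IFITM1* and *IFITM3* its r was 0.15 and 0.29 (adjusted p = 0.622 and 0.349), with rho 0.25 and 0.37 (adjusted p = 0.425 and 0.234). Without the cows farthest from each member's median, r with *IRF1* was 0.68 for *IFIT3* and 0.56 for *IFIT2*. *IRF3*, a factor activated by sensors of viral nucleic acid, had r 0.74 and 0.88 with *IFITM1* and *IFITM3* (adjusted p = 0.00663 and 0.00192), with rho 0.54 and 0.70 (adjusted p = 0.0900 and 0.0237). With the IFIT genes its r was 0.40 to 0.56, none with an adjusted p below 0.05, while the rho of *IFIT2* passed (0.65, adjusted p = 0.0344). Without the cows farthest from each member's median, r with *IRF3* was 0.42 for *IFITM1* and 0.70 for *IFITM3*. *IRF7*, which amplifies interferon production, went with both families, with r 0.91 for *IFITM3*, 0.83 for *IFITM1* and 0.69 to 0.86 for the IFIT genes (adjusted p of at most 0.0120), and by rho with all but *IFIT5* (adjusted p = 0.0809). *IRF7* was at 424 CPM in cow 8, 381 CPM in cow 5 and 231 CPM in cow 12, the top 3 cows, and lowest at 61.9 CPM in cow 4. *IRF9* (0.63 to 0.87) and *STAT2* (0.64 to 0.87) also passed with all 6 members by r, though not by rho with *IFIT5* (adjusted p = 0.181 and 0.0780). Whether r with a factor differed between the families was not tested.

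**Figure D4:**
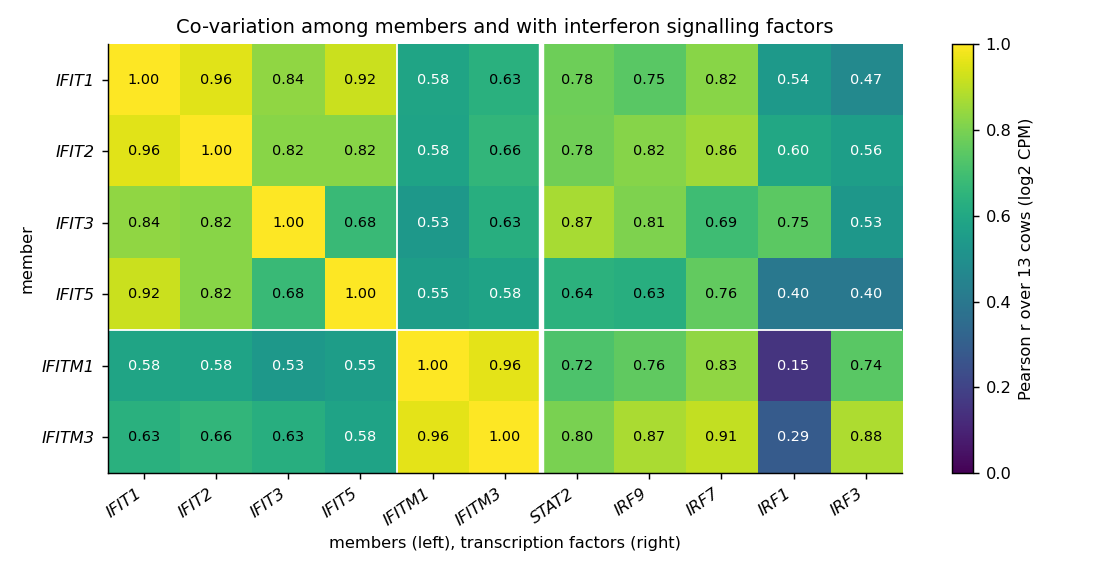
Pearson r of log2 CPM over 13 cows between members (left block) and between members and 5 transcription factors (right block); colour runs from 0 to 1 and each cell gives r. The IFIT block (0.68 to 0.96) and the IFITM pair (0.96) are brighter than the cells between them (0.53 to 0.66), and *IRF1* is darkest with the IFITM rows (0.15 and 0.29).

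No member passed the test of high against low cortisol. All 6 had lower mean CPM in the high group and a log2 fold change below 0, and the groups overlapped for each. Mean CPM of *IFIT1* was 439 ± 187 (SD, n = 7) in the high and 708 ± 564 (n = 6) in the low group, with a log2 fold change of -0.69 (SE 0.37, edgeR quasi-likelihood test, unadjusted p = 0.0803, exact permutation p = 0.251). *IFIT2* was at 343 ± 202 and 540 ± 537 CPM, with -0.66 (SE 0.49, edgeR unadjusted p = 0.197, exact permutation p = 0.459). The SD of the low group was close to its mean for *IFIT2* and large beside it for *IFIT1*, since cow 8 exceeded the next low cow by far. *IFIT3* was at 637 ± 187 and 886 ± 426 CPM, with -0.48 (SE 0.26, edgeR unadjusted p = 0.0862, exact permutation p = 0.190). *IFIT5* was at 106 ± 33.4 and 150 ± 67.4 CPM, with -0.50 (SE 0.24, edgeR unadjusted p = 0.0560, exact permutation p = 0.125), the smallest of the 6 in both tests. For *IFIT5*, 6 of 7 high cows were below the low median, and for the other members 4 or 5 of 7 were. *IFITM1* was at 329 ± 156 and 406 ± 130 CPM, with -0.30 (SE 0.27, edgeR unadjusted p = 0.276, exact permutation p = 0.255). *IFITM3* was at 348 ± 229 and 465 ± 170 CPM, with -0.42 (SE 0.34, edgeR unadjusted p = 0.240, exact permutation p = 0.187). The adjusted p was 0.999 for each member. The exact tests were two-sided and compared mean log2 CPM. In whole blood, fewer cells of a type and less RNA per cell cannot be told apart.

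At an adjusted p of 0.05, edgeR called 0 of the 6 members and 0.0% of all genes tested. At an unadjusted p below 0.05 it had 0 of 6 members, where 2.09% of the genes tested passed in either direction and 1.16% as lower in the high group. DESeq2 had 1 of 6 (*IFIT5*, unadjusted p = 0.0446, adjusted p = 1.00), where 2.43% of its genes passed, and limma-voom had 0 of 6. *IFIT5* is also in the study's list of genes that differ in expression, which was chosen on cows that include these, so it is not independent evidence. The study set a corrected p of 0.05 with DESeq2 and describes larger groups. In the cows here *IFIT5* did not pass that limit by DESeq2.

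Cows 8 and 5 moved these values in opposite directions. Without cow 8 the log2 fold changes of the IFIT genes were -0.15, 0.065 (SE 0.35, *IFIT2*), -0.20 and -0.22, and those of *IFITM1* and *IFITM3* were -0.24 and -0.31. For the IFITM rows other cows moved the values further towards 0. *IFITM1* and *IFITM3* had -0.13 and -0.26 without low cow 12, and -0.19 and -0.27 without high cow 4. Without cow 5, the high cow with high levels of both families, the log2 fold changes of all 6 members were larger in size. In that fit 4 of 6 members had an unadjusted edgeR p below 0.05. These were *IFIT1* (-0.89, unadjusted p = 0.0283), *IFIT5* (-0.66, unadjusted p = 0.0109), *IFITM1* (-0.54, unadjusted p = 0.0321) and *IFITM3* (-0.79, unadjusted p = 0.00982), with an adjusted p of 0.893 each. Without low cow 13, 3 members passed that limit, without low cow 11 there were 2 and without low cow 9 there was 1. Again none passed after adjustment. The share of all genes tested that passed in these fits was not counted. Of the 33 other interferon-stimulated genes listed below, 28 passed without cow 5, against 6 with all cows.

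**Figure D5:**
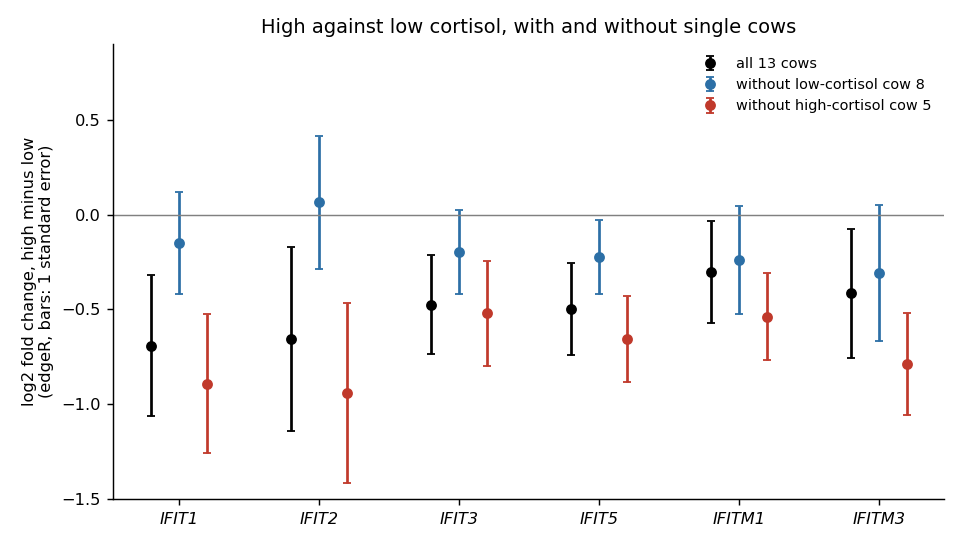
Log2 fold change of each member (high minus low, edgeR), with bars of 1 standard error, for all 13 cows (black), without cow 8 of the low group (blue) and without cow 5 of the high group (red). With all cows the values lie between -0.69 and -0.30; without cow 8 they lie between -0.31 and 0.07, and without cow 5 between -0.94 and -0.52.

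The other genes of the pathway gave the setting of these values, by unadjusted edgeR p since none passed after adjustment. Over all genes tested, 2.09% had a p below 0.05 in either direction and 1.16% as lower in the high group. Of 10 receptor and signalling genes, 7 had lower and 3 higher mean levels in the high group, and 1 had a p below 0.05 (*STAT2*, -0.47, SE 0.22, unadjusted p = 0.0461). *IRF9* had -0.35 (unadjusted p = 0.167). Of 7 interferon regulatory factors tested, 6 were lower and 1 higher, with 0 at p below 0.05, and *IRF7* had -0.45 (SE 0.44, unadjusted p = 0.325). *IRF1* had -0.34 (unadjusted p = 0.136) and *IRF8*, the higher one, 0.14 (unadjusted p = 0.224). All 33 tested genes of the 40 listed as other interferon-stimulated genes had log2 fold changes below 0, with a median of -0.58 against 0.01 over all genes tested, and 6 had a p below 0.05. These 33 values come from the same 13 cows and are not separate observations. *Mx1*, a GTPase that traps viral nucleocapsids, had -1.11 (SE 0.43, unadjusted p = 0.0202), and *OAS1X*, of the synthetases that activate RNase L, had -1.11 (SE 0.44, unadjusted p = 0.0246). *ISG15* had -0.87 (SE 0.74, unadjusted p = 0.258) and *RSAD2*, the antiviral enzyme viperin, had -0.97 (SE 0.65, unadjusted p = 0.155). The 6 members' values (-0.69 to -0.30) thus lay around the median of this list. Their SDs of log2 CPM (0.52 to 0.92) lay around its median SD of 0.72. The count of 6 was 28 without cow 5, 13 without cow 11 or 13, 12 without cow 9, 3 without cow 10 or 12, 2 without cow 1, 3 or 7, and 1 without cow 4 or cow 8. Of 5 brakes on the signal, 3 were lower and 2 higher, with 1 at p below 0.05 (*PIAS1*, -0.23, unadjusted p = 0.0479), and *SOCS3* had -0.19 (unadjusted p = 0.280).

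Blood composition was followed beside the members with lists of cell type markers. None of 54 relations of a member with a marker score passed an adjusted permutation p of 0.05, the largest in size being *IFIT3* with the T cell score (r -0.62, rho -0.73, adjusted p = 0.858 and 0.329). The exact p-values that compare the scores between the groups were not adjusted for the number of scores. The log2 haemoglobin share was higher in the high group by 2.05 (unadjusted exact permutation p = 0.0175, the smallest of these). Shares were 0.0282% to 0.815% against 0.0114% to 0.0552% of named counts. The neutrophil score, over 4 of 6 markers with a row, was lower by 0.33 (exact p = 0.0892), with summed levels of 3432 to 7275 CPM in the high and 5582 to 8074 CPM in the low group, the highest in cow 8. The scores of monocytes, T cells, B cells, cytotoxic cells and eosinophils differed by 0.13, 0.03, 0.15, 0.27 and 0.19 (exact p = 0.555, 0.747, 0.402, 0.0804 and 0.703), and those of platelets and erythroid cells by -0.22 and 0.44 (exact p = 0.564 and 0.144). No marker with a row was at 0 in all cows. With the haemoglobin share as a covariate, the log2 fold changes were -0.61, -0.42, -0.26 and -0.52 for *IFIT1*, *IFIT2*, *IFIT3* and *IFIT5* and -0.38 and -0.54 for *IFITM1* and *IFITM3*. With the neutrophil score they were -0.49, -0.46, -0.32, -0.41, -0.29 and -0.55 in that order, and 0 of 6 members had a p below 0.05 in either fit. With either covariate, 1 of the 33 other interferon-stimulated genes had one. The share of all genes tested that passed with a covariate was not counted. The part of the other cell types in the members' values was not tested.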

How the data were processed

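For each of 13 cows the authors deposited raw counts per gene name, whole numbers that were not normalized. The table headers name featureCounts 1.4.6-p3 (reads over exons added up per name) and Ensembl 88 models for UMD3.1, and show an alignment folder named for goat. The submitters' processing notes name STAR 2.7.3, Subread 1.6.5 and ARS-UCD1.2 instead, and this was not resolved. An unnamed entry with 13.9% to 16.7% of the counts was left out. At named-gene depths of 11045599 to 28124575, 3 counts, the limit a count of 0 allows, are 0.107 to 0.272 CPM, for counting error only.

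Counts were scaled with TMM factors to CPM, and to log2 CPM with a prior count of 2. Groups, from the sample labels, were compared with edgeR 4.0.16 in R 4.3.3 (quasi-likelihood, robust, filterByExpr with minimum count 10 and total 15, no covariates), with Benjamini-Hochberg adjustment over 11033 genes. The standard error is the log2 fold change divided by the root of F. P-values measure the spread between these cows. Single genes were also tested by exact permutation over 1716 splits (smallest p 5.8e-04). Correlations have permutation p from 100000 resamples (smallest 1e-05), r without the 2 cows farthest from the median of the first gene, and r within groups. Members were ordered by geometric mean of CPM per kilobase, and pairs compared by exact sign-flip of cows. Alternatives were DESeq2 1.42.0, limma-voom (limma 3.58.1), RLE factors, other filters, 2 covariates, a prior count of 0.5, Spearman's rho, group means removed, and each cow left out. Those for the pathway lists, the exact tests and the marker relations were chosen after seeing the data.

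The members and gene lists were chosen with earlier results of these data known. Genes named are the members, the 5 genes with the highest r with each, the 2 nearest named genes on either side, the 2 genes with the smallest p of each pathway list, and *STAT2*, *IRF7*, *IRF9*, *Mx1*, *ISG15* and *RSAD2*. *IRF3*, *IFITM5* and *IFITM10* were named after their values were seen. A further gene of the rule is not reported here. The RefSeq table was used for names and order of genes alone.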

Additional observations from a re-analysis of the deposited data

How the results depend on the processing

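The log2 fold changes of the 6 members were below 0 in 119 of 120 alternative values, from -0.94 to 0.065. The exception was *IFIT2* without cow 8 of the low group (0.065), and the smallest adjusted p was 0.713. No gene was called in any alternative but DESeq2, which called 1 gene, not a member. Members at an unadjusted p below 0.05 were 0 in edgeR, 1 by DESeq2 and between 0 and 4 with 1 cow left out. By the exact permutation test the number was 0, and between 0 and 2 with 1 cow left out (2 without cow 5 of the high group). The share of all genes tested that passed in the edgeR fits with 1 cow left out or with a covariate was not counted. With 1 cow left out, the median log2 span was between 1.603 and 2.51 for the IFIT genes and between 1.62 and 2.34 for the IFITM rows. The median r stayed within 0.66 to 0.87 (IFIT), 0.94 to 0.97 (IFITM) and 0.54 to 0.67 (between the families) with RLE factors, a prior count of 0.5, Spearman's rho, the group means removed or 1 cow left out, and it was 0.706, 0.923 and 0.449 without the 2 cows farthest from the median. By Spearman's rho the medians were 0.681 (IFIT), 0.945 (IFITM) and 0.648 (between the families). Among the other interferon-stimulated genes, the 6 genes at an unadjusted p below 0.05 became 8 by DESeq2, 1 with the haemoglobin share or the neutrophil score as a covariate, and between 1 and 28 with 1 cow left out. For receptors and signalling the 1 gene became 0 by limma-voom or with the haemoglobin share, 2 with the neutrophil score, and between 0 and 2 with 1 cow left out. For the brakes the 1 gene became 0 without a filter on low counts or with either covariate, and between 0 and 1 with 1 cow left out. For the regulatory factors the number was between 0 and 1 with 1 cow left out. The cause of these shifts was not tested. No paired analysis was possible because the groups hold different cows, which the labels do not match to each other. Counting error of the members was at most 3.30% of a count, and leaving out cow 4, 5 or 8 moved values by more than that.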

Other observations

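Other genes of the IFITM family were expressed at lower levels. *IFITM5*, known from bone, had between 33 and 356 counts in a cow, with mean CPM of 5.89 ± 4.44 (SD, n = 7) in the high and 4.79 ± 1.67 (n = 6) in the low group. It lay 9243 bases from the row *IFITM1* on the opposite strand, and its highest cows (cow 5 at 15.4 CPM and cow 12 at 7.39 CPM) and its lowest cow (cow 4 at 2.11 CPM) were the same as those of the IFITM rows. Its log2 fold change was 0.31 (SE 0.39, edgeR unadjusted p = 0.429), of the opposite sign to those of the members. *IFITM10* was at 15.1 ± 5.99 and 14.0 ± 6.28 CPM, with a log2 fold change of 0.11 (SE 0.36, edgeR unadjusted p = 0.770), and its lowest cow was cow 10 at 3.62 CPM.

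Genes beside the IFIT cluster were read in the same way. *LIPA* and *PANK1* had an SD of log2 CPM of 0.35 and 0.29, and *SLC16A12*, with 84 to 731 counts, had 0.69, against 0.52 to 0.92 for the IFIT genes. Their log2 fold changes were -0.02, 0.07 and 0.19 (edgeR unadjusted p = 0.891, 0.700 and 0.590). *CH25H*, itself an interferon-stimulated gene, had 0 to 4 counts in a cow and was not tested. Beside *IFITM3*, *TOLLIP* had an SD of 0.25 and a log2 fold change of 0.00 (edgeR unadjusted p = 0.993), and *B4GALNT4*, with 8 to 70 counts, had an SD of 0.70 and a log2 fold change of 0.78 (SE 0.36, edgeR unadjusted p = 0.0463, adjusted p = 0.999). *MUC5B*, with 3 to 86 counts, had an SD of 1.10 and a log2 fold change of 0.66 (SE 0.53, edgeR unadjusted p = 0.228). Beside the row *IFITM1*, *SIRT3*, *RIC8A* and *PGGHG* had SDs of 0.34, 0.19 and 0.36 and log2 fold changes of 0.06, -0.06 and -0.13 (edgeR unadjusted p = 0.768, 0.583 and 0.509). Across cows their r was 0.70, 0.67 and 0.73 with *IFITM1* and 0.58, 0.79 and 0.65 with *IFITM3*. For *TOLLIP*, *B4GALNT4* and *MUC5B*, r with *IFITM3* was 0.76, 0.31 and -0.04. *TOLLIP* also had 0.66 with *IFITM1*, on another chromosome, and *IFITM5* had 0.78 with *IFITM1* and 0.77 with *IFITM3*. For *LIPA*, *PANK1* and *SLC16A12*, r with the IFIT genes was between -0.23 and 0.30. Over all genes tested, the median r was 0.02 with *IFITM1* and 0.02 with *IFITM3*. These values of r were not tested.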
